A study of Mus musculus with 28 samples.

Results

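The genes described here encode mitochondrial superoxide dismutase (Sod2), the transcription factor NRF2 (Nfe2l2) and a set of antioxidant enzymes and carriers, in mouse spleen after lipopolysaccharide (LPS) challenge, an abscisic acid (ABA) diet and loss of PPARγ. The 10 listed genes were Sod2, Nfe2l2, Nqo1, Gclm, Gclc, Txnrd1, Srxn1, Prdx1, Slc7a11 and Gsr. Each was read from the probe set that names that gene alone and had the highest mean, which gave values for 9 members of the 18193 genes on the array. All 5 probe sets of Prdx1, a peroxiredoxin that reduces hydrogen peroxide, also name other genes, so Prdx1 has no value here.

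Spleen RNA was measured on 28 1-colour arrays in 2 experiments. LPS is a component of the bacterial outer membrane that the receptor TLR4 senses, and ABA is a plant hormone. The labels name the source as spleen or splenocytes. The first experiment (ABAIMMUN05) held wild-type mice only: LPS with the ABA diet (n = 4), LPS with the control diet (n = 4), no LPS with the ABA diet (n = 2) and no LPS with the control diet (n = 2). The second experiment (ABAIMMUN06) held 8 groups of 2 arrays, PPARγ-null and wild-type mice on each diet with and without LPS. Null mice carry floxed PPAR g alleles and a Cre recombinase driven by the MMTV promoter (PPAR g flfl; MMTV-Cre+), which the series describes as a loss in epithelial and immune cells. Wild-type mice carry the same floxed alleles without the recombinase (PPAR g flfl; MMTV-Cre-), so every group is floxed. The labels give no dose or time of LPS, no dose of ABA, no age or sex, and do not say whether the arrays of a group come from separate animals. The p-values therefore reflect spread among arrays that may be technical in part.

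SOD2 turns superoxide into hydrogen peroxide inside mitochondria, and its gene is a classical target of NF-κB in cells that meet LPS. NRF2 is held in the cytoplasm and degraded through KEAP1. When electrophiles or oxidants modify KEAP1, NRF2 enters the nucleus, pairs with small MAF proteins and binds antioxidant response elements (AREs). Its target genes make glutathione, reduce thioredoxin and peroxiredoxins and detoxify quinones. Most of these steps act on NRF2 protein, which an RNA array does not measure.

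Promoter windows from RefSeq (GRCm38.p6) were matched for 8 of the 10 members, all but Gclc and Gsr, and the 250 bases before the gene start were searched on both strands. Printed here are 4 windows, picked by hand from members with LPS results below, and each holds at least 1 of the 3 short motifs searched. Those of Nfe2l2 and Nqo1 also meet both conditions and are not printed. Capitals mark the ARE core in Txnrd1 and Gclm, the amino acid response element in Slc7a11 and the GC box in Sod2. The GC boxes of Gclm and Txnrd1 are not capitalised, and each window is written 5′ to 3′ on the strand of its gene. They lie at chr17:13007589-13007838 (plus strand, Sod2), chr3:50443614-50443863 (minus strand, Slc7a11), chr10:82858956-82859205 (plus strand, Txnrd1) and chr3:122245307-122245556 (plus strand, Gclm).
Sod2: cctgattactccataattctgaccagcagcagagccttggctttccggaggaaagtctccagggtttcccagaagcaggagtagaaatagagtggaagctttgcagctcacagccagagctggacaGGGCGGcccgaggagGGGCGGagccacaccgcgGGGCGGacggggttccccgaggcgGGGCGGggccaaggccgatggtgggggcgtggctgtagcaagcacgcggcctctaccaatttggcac
Slc7a11: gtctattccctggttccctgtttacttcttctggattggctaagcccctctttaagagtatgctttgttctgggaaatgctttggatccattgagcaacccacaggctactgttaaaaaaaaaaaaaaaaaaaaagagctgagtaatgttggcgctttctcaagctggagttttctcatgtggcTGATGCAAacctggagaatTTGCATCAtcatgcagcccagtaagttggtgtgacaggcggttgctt
Txnrd1: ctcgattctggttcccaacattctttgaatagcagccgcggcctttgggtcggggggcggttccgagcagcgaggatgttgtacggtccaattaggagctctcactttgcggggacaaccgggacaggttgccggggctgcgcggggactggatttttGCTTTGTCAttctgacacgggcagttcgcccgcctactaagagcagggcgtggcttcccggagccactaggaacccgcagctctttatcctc
Gclm: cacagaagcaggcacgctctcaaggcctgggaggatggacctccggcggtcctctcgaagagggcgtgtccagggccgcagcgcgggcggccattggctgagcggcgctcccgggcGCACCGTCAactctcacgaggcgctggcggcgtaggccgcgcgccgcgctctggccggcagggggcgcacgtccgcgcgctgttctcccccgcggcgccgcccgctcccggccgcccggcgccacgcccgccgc

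The ARE core, searched as TGACNNNGC, was present in 10.2% of all 32851 promoter windows of this length. It occurred at -240 to -232 from the start in Nfe2l2, at -134 to -126 in Gclm, at -133 to -125 in Prdx1 and at -92 to -84 in 1 of 3 windows of Txnrd1. The windows of Sod2, Slc7a11, Srxn1 and Nqo1 held no match to these letters. The amino acid response element, searched as TGATGCAA, was present in 0.791% of windows and occurred at -66 to -59 and at -47 to -40 in Slc7a11. This motif was added after the Slc7a11 sequence had been seen. The GC box GGGCGG, a site for SP1-type factors, was present in 32.7% of windows and occurred 4 times in that of Sod2, between -124 and -62. It also occurred 3 times each in Nfe2l2 and Gclm, 2 times in Nqo1 and once each in Srxn1, Prdx1 and the printed window of Txnrd1. The motifs did not overlap one another in these 4 windows. A match describes the letters and is no evidence of binding.

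Each deposited value is a log2 expression level in arbitrary units, and the lowest value was 2.29 in the first experiment and 2.24 in the second. Levels are compared within an experiment only, because this difference points to separate normalisation. The spleen markers Cd79a (B cells) and Cd3e (T cells) were present on all arrays, at 5.17 to 12.3 and at 7.57 to 10.2. The values for Pparg itself were 2.45 to 3.31 on null arrays and 2.31 to 3.56 on the wild-type arrays of the same experiment, close to the lowest value in both. Where its probe set lies with respect to the floxed exons is unknown here, so these values check nothing. The pancreatic enzyme gene Cpa1 was high on 4 arrays, 1 LPS and 1 no LPS array of wild-type control-diet mice and 2 no LPS arrays of null mice. Xist was high on 6 of 16 arrays of the second experiment and on all 12 of the other. In wild-type mice of the second it was high on both control-diet LPS arrays and on replicate 1 of the ABA group without LPS. It was low on the other wild-type arrays there. In null mice it was high on replicate 2 of both LPS groups and of the ABA group without LPS. For these wild-type mice, the LPS difference on the control diet and the diet difference with LPS cannot be told apart from Xist status.

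**Figure D1:**
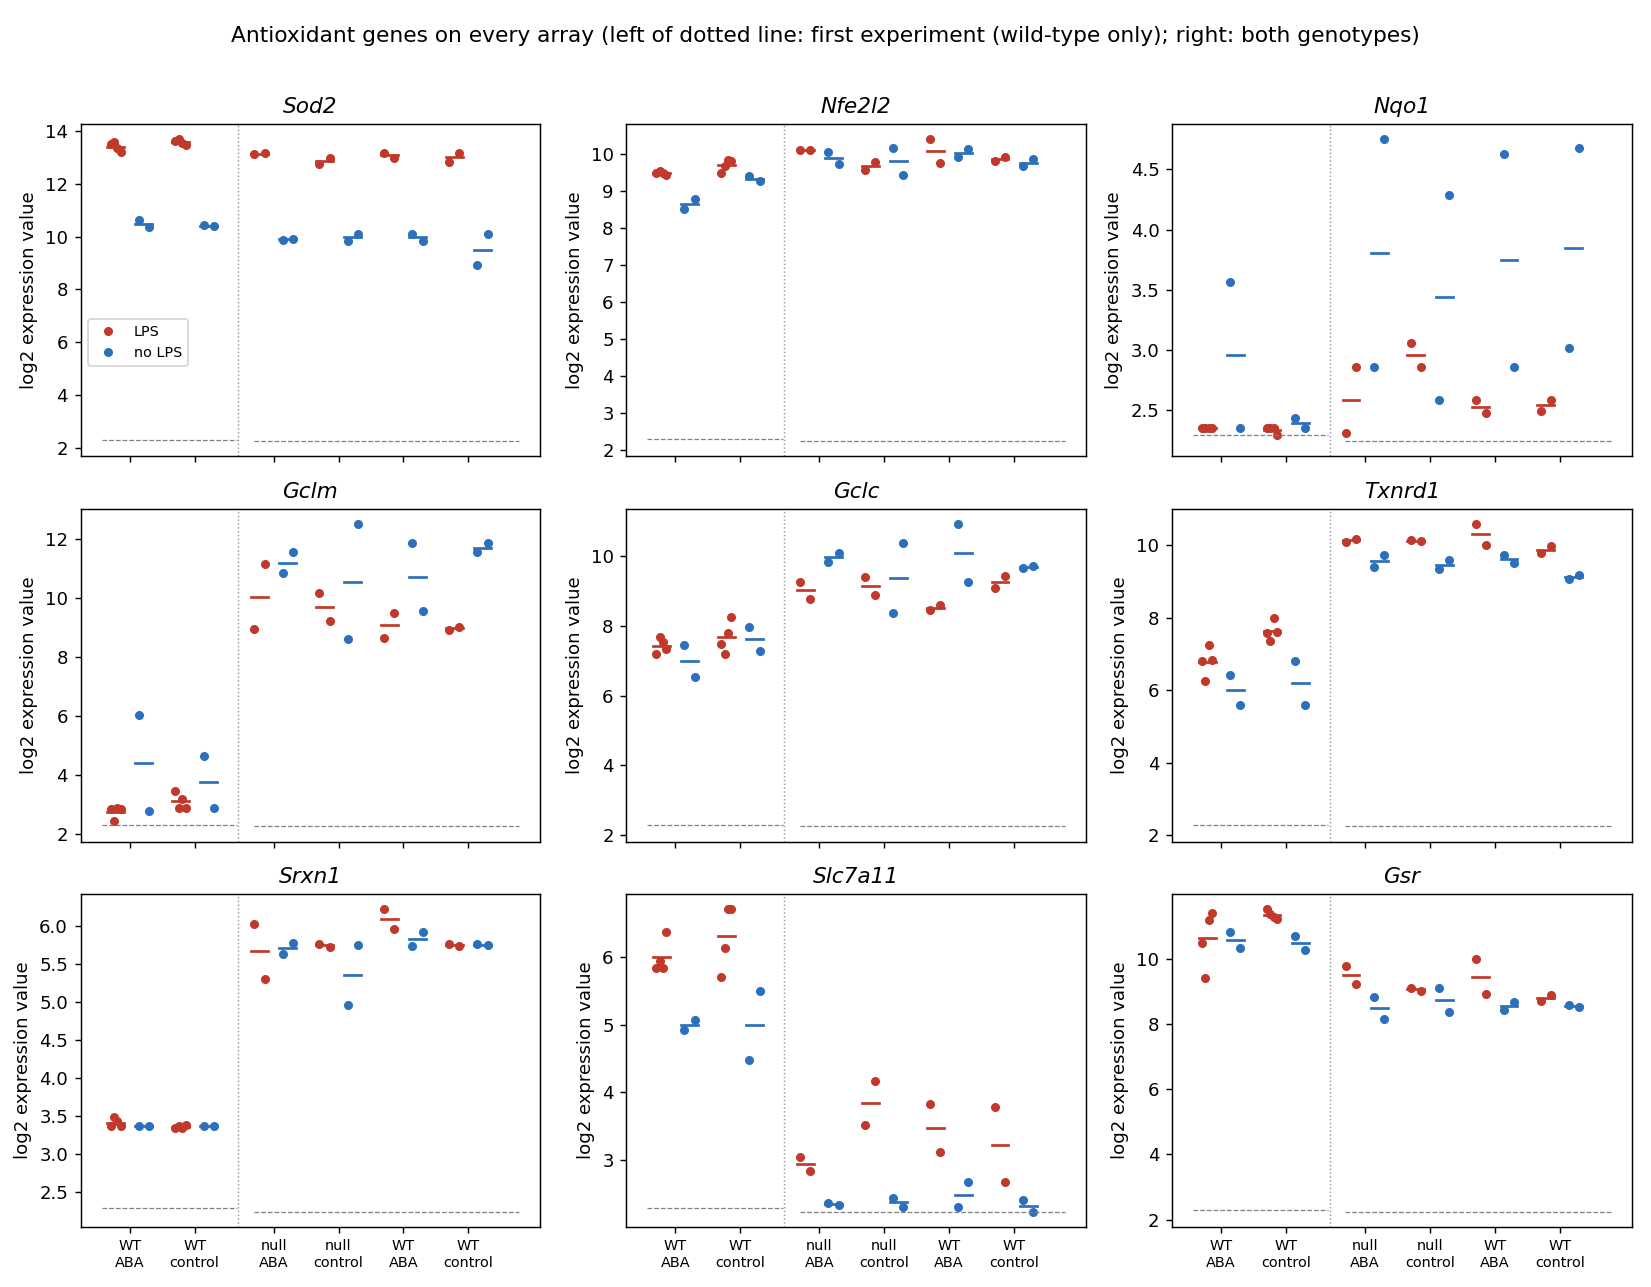
Log2 value of the 9 measured members on every array (1 point each), in red with LPS and in blue without, by genotype, diet and experiment; bars are group means and the dashed line is the lowest value of the experiment. Sod2 is the member whose LPS arrays all lie above the no LPS arrays in wild-type mice of both experiments and in null mice, and Gclm spreads widely within groups.

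LPS raised Sod2 more than any other member, and its LPS arrays lay above the no LPS arrays on each diet in each genotype. In wild-type mice of both experiments together Sod2 was 8.92-fold higher with LPS, while Slc7a11, Txnrd1 and Nfe2l2 rose by 1.30 to 2.09-fold and Gclm and Nqo1 fell. Thus 6 of 9 members passed the test, 4 higher and 2 lower, where 30.9% of all 13458 genes passed (16.7% higher and 14.1% lower). The median log2 change was 0.38 over the members and -0.0007 over all genes. The test was limma on 20 wild-type arrays with experiment as a term, with p-values adjusted over all genes tested and a threshold of 0.05.

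Sod2 had log2 values of 13.52, 13.57, 13.35 and 13.19 with LPS and the ABA diet in the first experiment, and of 13.62, 13.71, 13.54 and 13.49 with LPS and the control diet. Without LPS its values there were 10.62 and 10.37 on the ABA diet and 10.43 and 10.39 on the control diet. LPS arrays stood well clear of no LPS arrays, and the order of the 4 group means was LPS control, LPS ABA, no LPS ABA and no LPS control, with the diets overlapping at each LPS state. In the second experiment, null mice with LPS had 13.12 and 13.17 on the ABA diet and 12.76 and 12.98 on the control diet. Wild-type mice with LPS had 13.17 and 13.00 on the ABA diet and 12.82 and 13.18 on the control diet. All 8 LPS arrays again lay within a narrow band that both genotypes and both diets share, in which each group mean overlaps the next in order.

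Null mice without LPS had Sod2 values of 9.86 and 9.93 on the ABA diet and 9.85 and 10.10 on the control diet. Wild-type mice without LPS had 10.10 and 9.84 on the ABA diet and 8.93 and 10.09 on the control diet, where the array at 8.93 is the lowest of that experiment. The group means were thus 13.5 ± 0.16 with LPS (n = 8) and 10.5 ± 0.11 without (SD, n = 4) in the first experiment. They were 13.0 ± 0.18 and 9.93 ± 0.12 in null mice, and 13.0 ± 0.17 and 9.74 ± 0.55 in wild-type mice of the same experiment, with and without LPS (SD, n = 4 each). The change in wild-type mice was 3.16 ± 0.12 log2 (SE; limma adjusted p = 3.76e-11). Counted by overlap alone, Sod2, Nfe2l2 and Slc7a11 stood above without overlap in the first experiment (9.56% of genes did, and 6.07% stood below). In null mice Sod2, Slc7a11 and Txnrd1 did (6.5% of genes above and 6.97% below). In wild-type mice of the second experiment Sod2, Txnrd1 and Gsr stood above (9.41% of genes) and Gclm and Nqo1 below (7.91% of genes).

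The LPS effect was also compared between the experiments in wild-type mice, as the effect in the second minus that in the first. By limma 0 of 9 members passed after adjustment, where 4.8% of 13873 genes did, and 2 had an unadjusted p under 0.05, Nfe2l2 and Gclc. For Sod2 the difference was 0.25 log2, and 0.54 (adjusted p = 0.049) without replicate 2 of the wild-type no LPS control group of the second experiment, which leaves the array at 8.93 alone in its group.

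The Sod2 change passed the threshold under all 31 alternatives tried for wild-type mice, at 2.52 to 3.30 log2. The gene has 4 single-gene probe sets, and the other 3 also had higher means with LPS in wild-type mice. Their differences were 3.37, 1.79 and 2.44 log2 in the first experiment, and 3.11, 0.38 and 2.50 log2 in the other. The size of the change therefore differs with the probe set that is read, while the direction does not.

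Nfe2l2, the gene of NRF2, rose slightly over both experiments, with separate groups in 1 of them. In the first experiment it had 9.49, 9.52, 9.47 and 9.42 with LPS and the ABA diet and 9.49, 9.66, 9.82 and 9.80 with LPS and the control diet. Its values without LPS were 8.51 and 8.77 on the ABA diet and 9.39 and 9.25 on the control diet. All LPS arrays were above all no LPS arrays there, with a narrow gap. In the second experiment null mice had 10.11 and 10.10 (ABA) and 9.57 and 9.79 (control) with LPS, against 10.04 and 9.72 (ABA) and 10.15 and 9.43 (control) without. The wild-type values there were 10.40 and 9.76 (ABA) and 9.80 and 9.92 (control) with LPS, and 9.92 and 10.13 (ABA) and 9.66 and 9.85 (control) without. The LPS and no LPS values overlapped in both genotypes.

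The fitted change of Nfe2l2 over both experiments was 0.38 ± 0.13 log2, 1.30-fold (SE; limma adjusted p = 0.0399). Within the first experiment it was 0.60 ± 0.07 (adjusted p = 0.000435), and within the wild-type arrays of the other experiment it was 0.08 ± 0.17 (adjusted p = 0.81). The difference between the experiments was -0.52 ± 0.16 log2 (second minus first; 95% interval -0.87 to -0.17; adjusted p = 0.0941), which missed the threshold. Without replicate 1 of the wild-type LPS ABA group of the second experiment, which leaves 1 array in that group, that difference was -0.68. Over the 29 alternatives tried it ranged from -0.68 to -0.098, and 28 of them missed the threshold. The other single-gene probe set of Nfe2l2 was low, with means of 2.32 to 2.75 in wild-type mice. Its LPS differences were 0.07 log2 in the first experiment and 0.39 in the second, the reverse order. The combined call was also lost when any 1 of 12 of the 20 arrays was left out, with adjusted p between 0.01 and 0.11 over all 20, and under quantile normalisation (0.22 log2, adjusted p = 0.188).

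The first step of glutathione synthesis is catalysed by a ligase whose catalytic and modifier subunits are the products of Gclc and Gclm. The transporter encoded by Slc7a11 brings in cystine, a source of the cysteine that the ligase uses. Glutathione is kept reduced by glutathione reductase (Gsr). In wild-type mice with LPS Slc7a11 rose and Gclm fell, and Gclc and Gsr did not pass the test. Slc7a11 had 5.84, 5.94, 5.83 and 6.37 with LPS and the ABA diet and 5.70, 6.13, 6.70 and 6.70 with LPS and the control diet in the first experiment. Its values without LPS there were 4.92 and 5.08 on the ABA diet and 4.48 and 5.50 on the control diet. The LPS arrays were all higher.

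In the second experiment Slc7a11 lay near the lowest value without LPS and above it on most LPS arrays. Null mice had 3.05 and 2.84 (ABA) and 3.52 and 4.18 (control) with LPS, against 2.38 and 2.34 (ABA) and 2.44 and 2.32 (control) without LPS. Wild-type mice had 3.83 and 3.13 (ABA) and 3.79 and 2.67 (control) with LPS, against 2.32 and 2.67 (ABA) and 2.42 and 2.24 (control) without LPS. The null groups did not overlap, and the wild-type groups met at 2.67. The change over the 20 wild-type arrays was 1.06 ± 0.19 log2, 2.09-fold (SE; limma adjusted p = 0.000538), and within the wild-type arrays of the second experiment alone it was 0.94 ± 0.32 (adjusted p = 0.15). A change from a value near the lowest one is compressed, so these folds may understate the change in RNA. The other single-gene probe set of Slc7a11 had differences of 0.92 log2 in the first experiment and 0.13 in wild-type mice of the second. In the second its means were 2.39 with LPS and 2.26 without, both near the lowest value. The rise there is therefore seen with 1 probe set only.

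Gclm showed the opposite direction and spread widely within groups. In the second experiment wild-type mice had 8.64 and 9.49 (ABA) and 8.92 and 9.01 (control) with LPS, against 11.85 and 9.57 (ABA) and 11.56 and 11.85 (control) without LPS. Null mice had 8.94 and 11.15 (ABA) and 10.18 and 9.22 (control) with LPS, against 10.83 and 11.56 (ABA) and 8.59 and 12.51 (control) without LPS. The wild-type LPS arrays lay below all no LPS arrays of that genotype, while the null arrays overlapped. Values in the first experiment were low: 2.41 to 2.89 (ABA) and 2.88 to 3.45 (control) with LPS, against 6.04 and 2.75 (ABA) and 4.64 and 2.89 (control) without LPS, and there 2 no LPS arrays carry the difference.

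Over the 20 wild-type arrays Gclm was 3.03-fold lower with LPS (-1.60 ± 0.42 log2, SE; limma adjusted p = 0.00867). Taken alone, neither experiment passed, at -1.16 ± 0.56 (adjusted p = 0.166) in the first experiment and -2.19 ± 0.56 (adjusted p = 0.0898) in the other. The other single-gene probe set of Gclm had differences of -0.95 and -2.17 log2 in these 2 experiments. Both probe sets therefore gave lower means with LPS in both.

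Gclc did not pass the test, and its probe sets differed in direction in the first experiment. In the first experiment its values were 7.20, 7.67, 7.55 and 7.33 (ABA) and 7.48, 7.19, 7.81 and 8.26 (control) with LPS, against 7.47 and 6.54 (ABA) and 7.97 and 7.28 (control) without. Wild-type mice of the other experiment had 8.46 and 8.59 (ABA) and 9.10 and 9.42 (control) with LPS, against 10.94 and 9.28 (ABA) and 9.66 and 9.74 (control) without. Null mice had 9.26 and 8.79 (ABA) and 9.42 and 8.89 (control) with LPS, against 9.83 and 10.10 (ABA) and 8.37 and 10.40 (control) without. The first set overlaps widely, the null groups overlap through 1 low no LPS array, and in wild-type mice of the second experiment the top LPS value passes the lowest no LPS value. The combined change was -0.29 ± 0.27 log2 (SE; limma adjusted p = 0.448), made of 0.25 ± 0.25 in the first and -1.01 ± 0.39 in the second experiment. The other single-gene probe set of Gclc was lower with LPS in both, by differences of -0.41 and -1.23 log2. The difference between experiments was -1.26 ± 0.44 (95% interval -2.22 to -0.30; adjusted p = 0.145), and -1.67 with adjusted p = 0.00825 without replicate 2 of the wild-type no LPS ABA group of the second experiment. A fit with a term for high Xist gave the same -1.67 (adjusted p = 0.008). Among the wild-type groups, Xist status varies only within that no LPS ABA group. Both fits therefore rest on the difference between its 2 arrays, and neither is separate support for the other.

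Gsr had log2 values of 9.43 to 11.42 (ABA) and 11.24 to 11.53 (control) with LPS, against 10.33 and 10.84 (ABA) and 10.27 and 10.69 (control) without, in the first experiment. In the other experiment wild-type mice had 8.93 and 9.98 (ABA) and 8.72 and 8.88 (control) with LPS, against 8.42 and 8.67 (ABA) and 8.54 and 8.59 (control) without. Null mice had 9.78 and 9.24 (ABA) and 9.11 and 9.02 (control) with LPS, against 8.82 and 8.16 (ABA) and 9.09 and 8.38 (control) without. All but 1 wild-type LPS array of the first experiment, replicate 2 of the ABA group at 9.43, stood at 10.49 or above. The change was 0.51 ± 0.25 log2 (SE; limma adjusted p = 0.138), and 0.64 with adjusted p = 0.0113 when that 1 array was left out.

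Thioredoxin reductase 1 (Txnrd1) uses NADPH to keep thioredoxin reduced, and sulfiredoxin (Srxn1) repairs over-oxidised peroxiredoxins. Txnrd1 rose with LPS in both genotypes. In the first experiment its values were 6.80, 6.25, 7.26 and 6.84 (ABA) and 7.59, 7.36, 7.98 and 7.60 (control) with LPS, against 6.41 and 5.59 (ABA) and 6.80 and 5.58 (control) without. Null mice had 10.10 and 10.18 (ABA) and 10.13 and 10.12 (control) with LPS, against 9.40 and 9.74 (ABA) and 9.34 and 9.59 (control) without. Wild-type mice of that experiment had 10.59 and 10.005 (ABA) and 9.78 and 9.97 (control) with LPS, against 9.73 and 9.51 (ABA) and 9.07 and 9.17 (control) without. The LPS arrays were all higher in both genotypes of that experiment, and in the first experiment 1 LPS array, at 6.25 on the ABA diet, fell within the range of the no LPS arrays.

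The Txnrd1 change in wild-type mice was 0.94 ± 0.22 log2, 1.92-fold (SE; limma adjusted p = 0.00378). It was 1.11 ± 0.28 within the first experiment (adjusted p = 0.0175), and 0.72 ± 0.15 within the wild-type arrays of the other (adjusted p = 0.0656). With the mean of all its probe sets, the difference between the experiments was -0.58 ± 0.11 log2 (adjusted p = 0.0101). With the probe set read here that difference was -0.40 ± 0.37 (limma adjusted p = 0.614). A further Txnrd1 probe set differed by 1.48 and 0.16 log2 in the 2 experiments, and another lay at the lowest value. In wild-type mice of the second experiment the further set had means of 2.57 with LPS and 2.41 without, near the lowest value. The 0.16 and the mean of all probe sets are therefore compressed there, and do not show a smaller response.

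Srxn1 was at 3.34 to 3.50 with LPS and at 3.36 on all 4 arrays without LPS in the first experiment. In the other experiment it was at 5.31 to 6.03 with LPS and 4.97 to 5.78 without in null mice, and at 5.74 to 6.23 with LPS and 5.74 to 5.92 without in wild-type mice. These ranges overlap, and its change was 0.07 ± 0.04 log2 (SE; limma adjusted p = 0.271).

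Nqo1 encodes a quinone reductase that is widely used as a readout of NRF2 activity. In the first experiment it stayed near the lowest value on all LPS arrays, at 2.29 to 2.35, and reached 3.56 on 1 of 4 no LPS arrays. Wild-type mice of the other experiment had 2.58 and 2.48 (ABA) and 2.50 and 2.58 (control) with LPS, against 4.63 and 2.86 (ABA) and 3.02 and 4.68 (control) without. Null mice had 2.31 and 2.86 (ABA) and 3.06 and 2.86 (control) with LPS, against 2.86 and 4.75 (ABA) and 2.58 and 4.29 (control) without. The wild-type LPS arrays were all lower than the no LPS arrays there, and 1 no LPS array on each diet lay well above the rest. The change over the wild-type arrays was -0.73 ± 0.26 log2 (SE; limma adjusted p = 0.0424), and the call was lost when any 1 of 15 of the 20 arrays was left out. All 12 wild-type LPS arrays and 3 of 4 no LPS arrays of the first experiment lay within 0.5 log2 of the lowest value, so no fold is given.

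Markers of several cell types moved with the members, those of red cell precursors with Gclm, Nqo1 and Gclc among them. Of 8 listed erythroid markers 7 have a single-gene probe set, and 6 of these 7 fell with LPS in wild-type mice. The log2 changes were -5.18 for Hemgn, -5.17 for Slc4a1 and Rhd, -4.36 for Epb42, -4.05 for Klf1 and -2.45 for Alas2. The remaining one, Hba-a1, a globin gene, lay at or near the lowest value on all 28 arrays. The log2 of the summed marker level was 7.31 to 11.5 with LPS and 10.8 to 15.1 without in the first experiment. In the other experiment it was 13.0 to 14.7 with LPS and 11.6 to 16.1 without in null mice, and 10.6 to 12.4 with LPS and 14.1 to 16.4 without in wild-type mice. In bulk spleen RNA, fewer cells of a type and less RNA per cell cannot be told apart.

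Over the 28 arrays, centred within each experiment, the mean log2 erythroid marker value correlated with Gclm at r = 0.91, with Nqo1 at r = 0.75 and with Gclc at r = 0.57. Centred within each group instead, which removes LPS, diet and genotype, the values were 0.94, 0.66 and 0.66. Many of the Nqo1 values lay near the lowest value. Other members were correlated with these markers too, at -0.54 and -0.67 within groups for Nfe2l2 and at -0.64 and -0.36 for Slc7a11. The same 2 values were -0.36 and 0.49 for Txnrd1, -0.39 and -0.11 for Gsr, and -0.12 and 0.16 for Srxn1. The points share RNA composition and array normalisation, and no p-value is given. For example, the 2 null control-diet arrays without LPS had a mean erythroid marker value of 6.71 and 11.4 and a Gclm value of 8.59 and 12.51, in the same order. Within groups Nqo1 was also correlated with monocyte (-0.87) and T cell (-0.82) markers. For Sod2 the correlation with erythroid markers was -0.72 centred within experiment and 0.19 centred within groups. Its values with macrophage, monocyte, B cell and T cell markers lay between -0.80 and -0.73 centred within experiment, and between -0.66 and -0.28 within groups. The part of these markers in the results for the members was not tested.

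**Figure D2:**
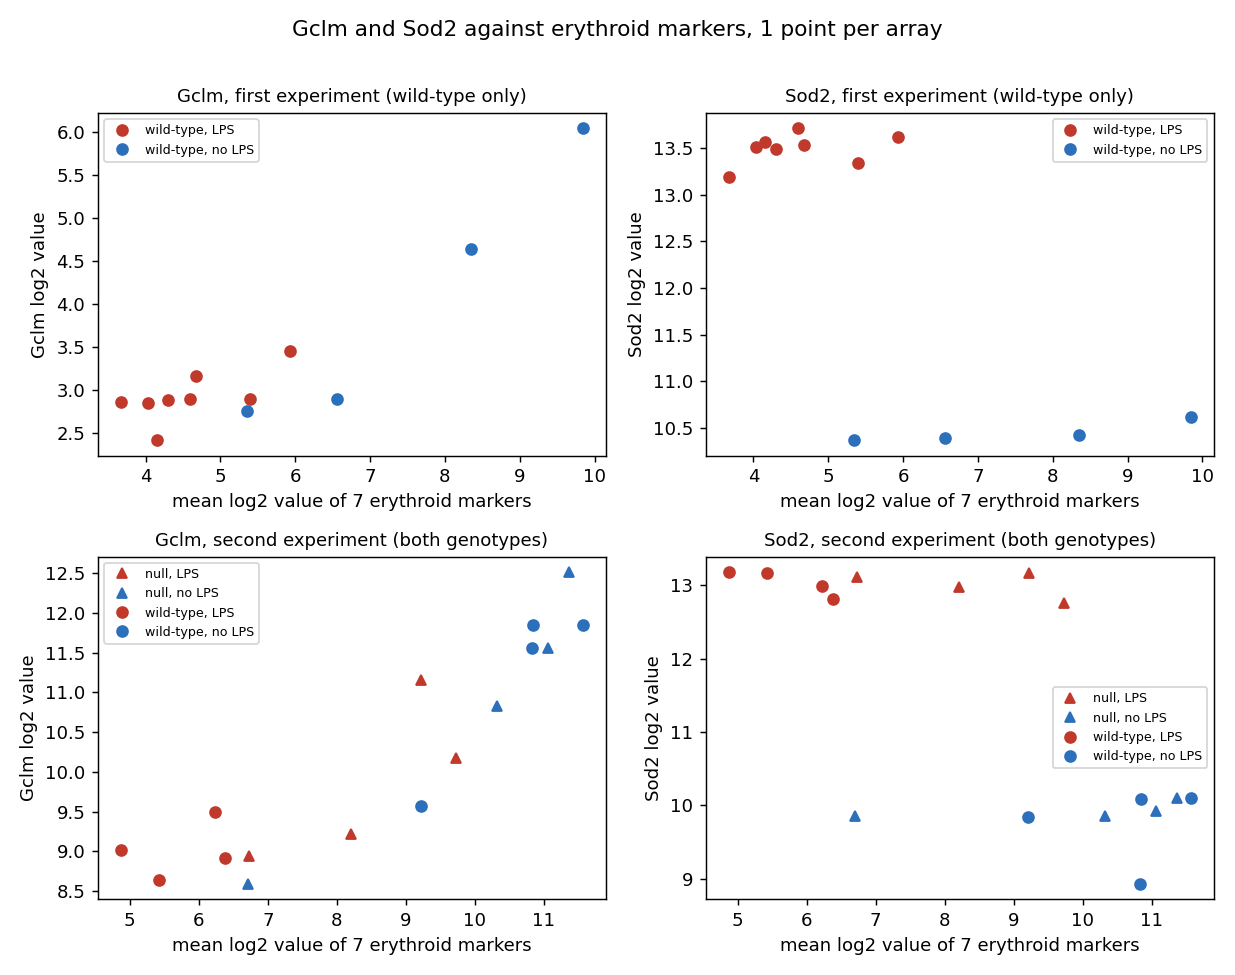
Gclm and Sod2 (log2 value, y axis) against the mean log2 value of 7 erythroid markers (x axis), 1 point per array, by experiment. Gclm rises along the erythroid axis among arrays with and without LPS alike, while Sod2 forms an upper band with LPS and a lower band without.

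The same comparison was made in null mice on all 16 arrays of the second experiment. Sod2, Txnrd1 and Slc7a11 rose with LPS in null mice, 3 of 9 members and all upward, where 7.4% of 13377 genes passed (3.95% higher and 3.45% lower). The same 3 members rose in the wild-type mice of that experiment in the same fit, where 14% passed (8.55% higher and 5.49% lower). Sod2 changed by 3.07 ± 0.22 log2 in null mice, 8.42-fold (SE; limma adjusted p = 0.000111), and by 3.30 ± 0.22 in wild-type mice, 9.87-fold (adjusted p = 4.9e-05). Txnrd1 changed by 0.62 ± 0.14 in null mice (adjusted p = 0.0278) and by 0.72 ± 0.14 in wild-type mice (adjusted p = 0.0105). Slc7a11 changed by 1.02 ± 0.26 in null mice (adjusted p = 0.0476) and by 0.94 ± 0.26 in wild-type mice (adjusted p = 0.0431).

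The Slc7a11 calls of these 8-array comparisons were marginal. Leaving out any 1 of 14 of 16 arrays ended the call in null mice, and 15 of 16 did so in wild-type mice. The changes stayed at 0.86 to 1.19 log2 in null and 0.66 to 1.22 in wild-type mice. Such fits also tested 14386 to 14523 genes in place of 13377, because the filter follows the smallest group. Lost calls in them therefore do not reflect the single array alone. The Txnrd1 call in null mice ended on leaving out any 1 of 6 of 16 arrays. With the mean of all its probe sets the change was 0.26 log2 (limma adjusted p = 0.0976). That mean includes probe sets that lay near the lowest value in wild-type mice of this experiment. Sod2 passed under all 25 alternatives in both genotypes, at 2.25 to 3.15 log2 in null mice and 2.32 to 3.59 in wild-type mice.

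The remaining members did not pass in null mice: Gsr differed by 0.68 ± 0.26 log2 (limma adjusted p = 0.168), Srxn1 by 0.17 ± 0.19 (0.647), Nfe2l2 by 0.05 ± 0.18 (0.926), Gclc by -0.59 ± 0.46 (0.499), Nqo1 by -0.85 ± 0.60 (0.451) and Gclm by -1.003 ± 0.88 (0.549). In wild-type mice of that fit the values were 0.57 ± 0.26 for Gsr (adjusted p = 0.199), 0.13 ± 0.19 for Srxn1 (0.762), 0.08 ± 0.18 for Nfe2l2 (0.882), -1.01 ± 0.46 for Gclc (0.197), -1.26 ± 0.60 for Nqo1 (0.212) and -2.19 ± 0.88 for Gclm (0.143). Without the arrays high in Cpa1, of which 2 are null no LPS arrays, the null differences of Gclm, Nqo1 and Nfe2l2 turned, to 0.16, 0.05 and -0.21 log2.

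The LPS response was compared between genotypes directly, as the effect in null minus that in wild-type mice. No member passed (0 of 9 by limma after adjustment, and 0 at an unadjusted p under 0.05), where 0.0299% of genes did. The difference was -0.23 log2 for Sod2 (95% interval -0.93 to 0.47), -0.10 for Txnrd1 (-0.53 to 0.34) and 0.08 for Slc7a11 (-0.75 to 0.91). The smallest p belonged to Gclm, at 1.19 ± 1.24 log2 (95% interval -1.63 to 4.00; adjusted p = 0.943). The intervals leave room for differences of up to 0.93 log2 in Sod2, and none shows that the genotypes respond alike. Of the erythroid markers 0 of 6 tested passed for LPS in null mice. Their log2 changes there were -2.50 for Klf1, -2.37 for Rhd, -2.13 for Hemgn, -1.60 for Epb42, -1.26 for Slc4a1 and 0.11 for Alas2. The SE were 0.92 to 1.55, so a fall may have been missed. The mean log2 value of all 7 markers with LPS was 6.73 to 9.73 in null mice, above the 4.87 to 6.38 of wild-type mice.

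**Figure D3:**
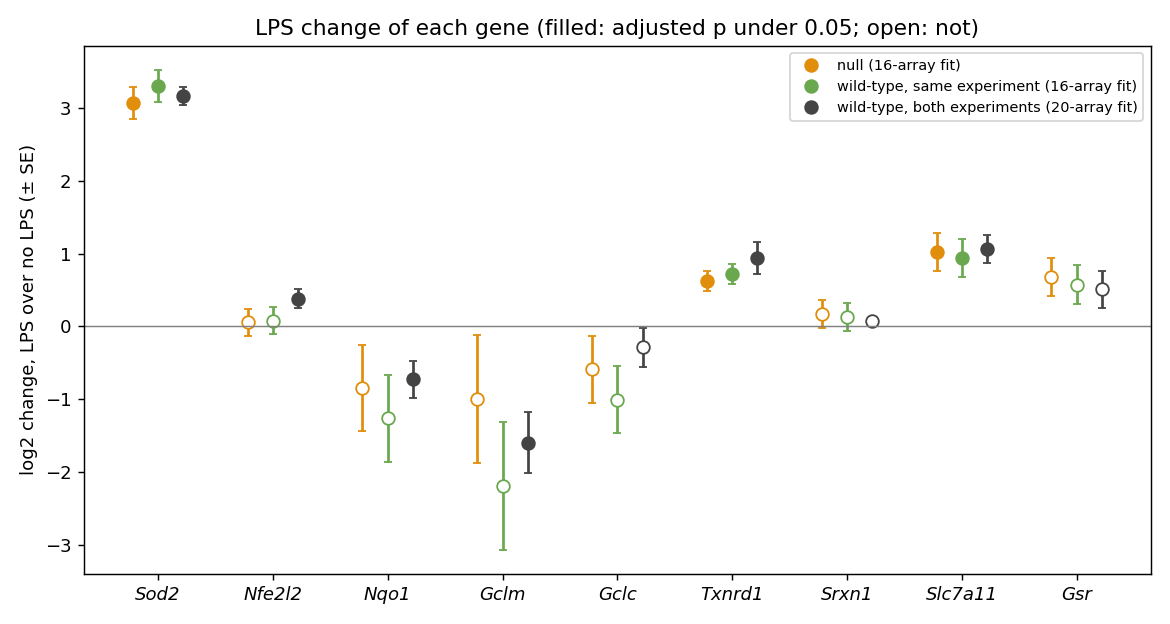
Log2 change with LPS (± SE) for each member, in null mice (orange), wild-type mice of the same experiment (green) and wild-type mice of both experiments (20 arrays, dark); filled symbols have an adjusted p under 0.05. Sod2 stands near 3 in all 3 comparisons, and the error bars of Gclm are the widest in each.

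Levels in null and wild-type mice were also compared at each LPS state, with the diets averaged. With LPS 0 of 9 members passed (0.0299% of genes did, and no member had an unadjusted p under 0.05). The member with the smallest p was Srxn1, at -0.22 ± 0.19 log2 in null over wild-type mice (95% interval -0.65 to 0.22; limma adjusted p = 1), and the value for Sod2 was -0.04 (-0.53 to 0.46). Without LPS 0 of 9 passed (0.00748% of genes did), and the smallest p again belonged to Srxn1, at -0.26 ± 0.19 (-0.69 to 0.17; adjusted p = 1).

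The ABA diet changed no member past the threshold. In wild-type mice with LPS 0 of 9 passed (0.0149% of genes did, and 1 member had an unadjusted p under 0.05). That member was Srxn1, at 0.15 ± 0.05 log2 with ABA over control diet (limma adjusted p = 0.919). The value for Sod2 was -0.10 (95% interval -0.42 to 0.23). In wild-type mice without LPS 0 of 9 passed (0.00743% of genes), and Sod2 had the smallest p, at 0.27 ± 0.19 (-0.13 to 0.67; adjusted p = 0.857). These fits pool the 2 experiments. Within the first alone, Nfe2l2 without LPS was -0.68 ± 0.12 (limma adjusted p = 0.0528) and Txnrd1 with LPS was -0.85 ± 0.32 (0.465). Within wild-type mice of the second they were 0.27 ± 0.24 (0.893) and 0.42 ± 0.22 (0.891).

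The change of the LPS response with diet also passed for 0 of 9 members (0% of genes), with Sod2 at -0.37 ± 0.24 log2 (95% interval -0.89 to 0.15; limma adjusted p = 0.956). In null mice, with LPS states averaged, 0 of 9 passed (0% of genes), and the smallest p was that of Slc7a11 at -0.46 ± 0.26 (-1.05 to 0.13; adjusted p = 1).

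The experiments gave opposite diet differences, without overlap, for 2 members. Txnrd1 with LPS was at 6.25 to 7.26 on the ABA diet, below the 7.36 to 7.98 of the control diet, in the first experiment. In the other experiment wild-type mice had 10.005 to 10.6 on the ABA diet, above the 9.78 to 9.97 of the control diet. Nfe2l2 without LPS was at 8.51 to 8.77 on the ABA diet against 9.25 to 9.39 on the control diet in the first experiment, and at 9.92 to 10.1 against 9.66 to 9.85 in the other. Such opposite and non-overlapping differences were found for 1.46% of genes with LPS and 4.24% without, and 36 combinations of member and group pair were examined. Between null and wild-type mice no member did so, where 7.15% of genes did with LPS and 0.855% without.

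Other genes of the same chemistry were read from a list of 95, of which 84 have a single-gene probe set. In wild-type mice 46 of 79 tested passed for LPS, 19 higher and 27 lower, with a median change of 0.09 log2. Of all genes 30.9% passed there (16.7% higher and 14.1% lower). In null mice 10 of 80 passed, 2 higher and 8 lower, with a median of -0.07, where 7.4% of all genes passed (3.95% higher and 3.45% lower). Of the 27 falling genes 7 belonged to glutathione metabolism and 5 to superoxide and peroxide removal. Of the 19 rising ones 5 were regulators or partners of NRF2 and 4 produced oxidants. The lists differ in size, and the number tested in each is given below.

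Among superoxide and peroxide enzymes 0 of 11 rose and 5 fell in wild-type mice, where 16.7% and 14.1% of all genes did. The cytosolic counterpart of Sod2, Sod1, fell by 0.54 ± 0.10 log2 (SE; limma adjusted p = 0.000534), and the extracellular Sod3 differed by 0.30 ± 0.18 (adjusted p = 0.223). Catalase (Cat), which splits hydrogen peroxide, fell by 2.05 ± 0.24 (adjusted p = 9.27e-06), and peroxiredoxin 2 (Prdx2), an abundant red cell enzyme, fell by 2.04 ± 0.36 (adjusted p = 0.000527). Of the 3 dismutase genes, therefore, 1 rose, 1 fell and 1 did not pass. The last of these, Sod3, lay near the lowest value on most arrays, so its result says little. Its highest value, 4.10, was on 1 wild-type control-diet LPS array of the second experiment. In null mice these 3 falling genes had differences of -0.55 for Sod1, -1.03 for Cat and -1.31 for Prdx2, none past the threshold (adjusted p = 0.116, 0.219 and 0.317).

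Of 15 tested genes of glutathione synthesis and transfer 3 rose and 7 fell in wild-type mice (16.7% and 14.1% of all genes). The glutathione transferase Mgst3 fell by 3.38 ± 0.71 log2 (SE; limma adjusted p = 0.00194) and Chac2, which degrades glutathione, had a change of -1.90 ± 0.44 (adjusted p = 0.0038). The glutathione-conjugate exporter Abcc1 rose by 1.35 ± 0.17 (adjusted p = 2.26e-05), and Ggct, which acts in the breakdown of γ-glutamyl peptides, by 1.25 ± 0.22 (adjusted p = 0.000466). The members of this pathway, Slc7a11 and Gclm, showed the same mixture of directions.

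Among 6 genes of heme and iron handling 1 rose and 4 fell in wild-type mice (16.7% and 14.1% of all genes). Biliverdin reductase B (Blvrb) fell by 3.24 ± 0.47 log2 (SE; limma adjusted p = 8.32e-05), ferrochelatase (Fech), the last enzyme of heme synthesis, fell by 2.80 ± 0.41 (adjusted p = 9.86e-05) and heme oxygenase 1 (Hmox1) fell by 1.39 ± 0.38 (adjusted p = 0.0115). The Fech difference in null mice was -0.58 (adjusted p = 0.739) and turned to 0.49 without the arrays high in Cpa1. Several of these genes, among them Fech, Blvrb and Prdx2, are highly expressed in red cell precursors, and the erythroid markers given above fell in the same arrays, whose part in these changes was not tested.

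Of 14 thioredoxin and glutaredoxin genes 3 rose and 2 fell in wild-type mice, shares close to the 16.7% and 14.1% of all genes. Thioredoxin itself (Txn1), the substrate of Txnrd1, rose by 0.95 ± 0.07 log2 in wild-type mice (SE; limma adjusted p = 8.5e-08) and by 0.96 in null mice (adjusted p = 0.00441). Thioredoxin and its reductase therefore rose in both genotypes. Of 7 genes that supply NADPH 1 rose and 4 fell, and of 9 further NRF2 targets 2 rose and 3 fell.

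Among 11 regulators and partners of NRF2 5 rose and 2 fell in wild-type mice (16.7% and 14.1% of all genes). Keap1, which targets NRF2 for degradation, rose by 0.74 ± 0.12 log2 (SE; limma adjusted p = 0.000307), and Bach1, which competes with NRF2 at AREs, by 0.68 ± 0.15 (adjusted p = 0.0031). The related factor Nfe2l1 rose by 0.95 ± 0.23 (adjusted p = 0.0049), with a difference of 1.38 between the experiments (second minus first; adjusted p = 0.0107). Maff, a small MAF partner, rose by 3.37 ± 0.53 (adjusted p = 0.000165), and its change differed between the experiments by -3.87 ± 0.38 (second minus first; adjusted p = 6.95e-05). Maff group means were 8.21 (ABA) and 8.78 (control) with LPS against 2.94 and 4.00 without in the first experiment, and 4.37 and 4.02 against 3.03 in both diets in wild-type mice of the other.

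Of 6 oxidant-producing genes 4 rose and none fell in wild-type mice (16.7% and 14.1% of all genes). Xanthine dehydrogenase (Xdh) rose by 2.93 ± 0.30 log2 (SE; limma adjusted p = 2e-06), and the subunits of the phagocyte NADPH oxidase Cybb and Ncf1 by 1.57 ± 0.17 (adjusted p = 4.75e-06) and 0.97 ± 0.21 (adjusted p = 0.00206). In null mice Xdh differed by 1.89 (adjusted p = 0.0845), Cybb by 1.21 (adjusted p = 0.129) and Ncf1 by 1.12 (adjusted p = 0.113). The log2 summed level of 7 neutrophil markers was 13.3 to 14.7 with LPS and 13.7 to 15.1 without in the first experiment, and 15.2 to 16.1 with LPS and 12.5 to 14.6 without in wild-type mice of the other. In null mice it was 14.8 to 15.7 with LPS and 12.6 to 14.2 without. The mean log2 value of the neutrophil markers averaged 8.14 with LPS against 9.45 without in the first experiment. In the second it averaged 9.12 against 7.93 in null mice and 9.20 against 7.93 in wild-type mice. The LPS change differed between the experiments for Ltf, Ngp, Camp, S100a9 and S100a8 (limma adjusted p under 0.05). These differences, second minus first, were 4.08, 3.79, 3.05, 2.68 and 2.13 log2. The mean log2 value of 7 macrophage markers was lower with LPS in each set: its average was 7.55 against 8.55 without LPS in the first experiment, 10.02 against 11.47 in null mice, and 9.73 against 11.16 in wild-type mice of the second, where the arrays overlapped. These 7 markers did not move together. In wild-type mice Cd163, Cd5l and Vcam1 fell (-6.08, -2.86 and -1.47 log2) and Marco rose (1.57). Spic, Adgre1 and C1qa did not pass (0.76, -0.17 and -0.03). The log2 summed level of the 7 overlapped between LPS and no LPS arrays in each set, at 14.40 to 15.04 against 14.40 to 15.38 in null mice. The means of 2 monocyte markers, Ccr2 and Lyz2, were also lower with LPS, at 7.33 against 7.85 without in the first experiment, at 8.70 against 9.98 in null mice and at 8.74 against 9.76 in wild-type mice of the second. On every array of the first experiment 1 of the 2 lay near the lowest value, so the difference there rests on the other. The part of these markers in the changes of the oxidase genes and of Sod2 was not tested.

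**Figure D4:**
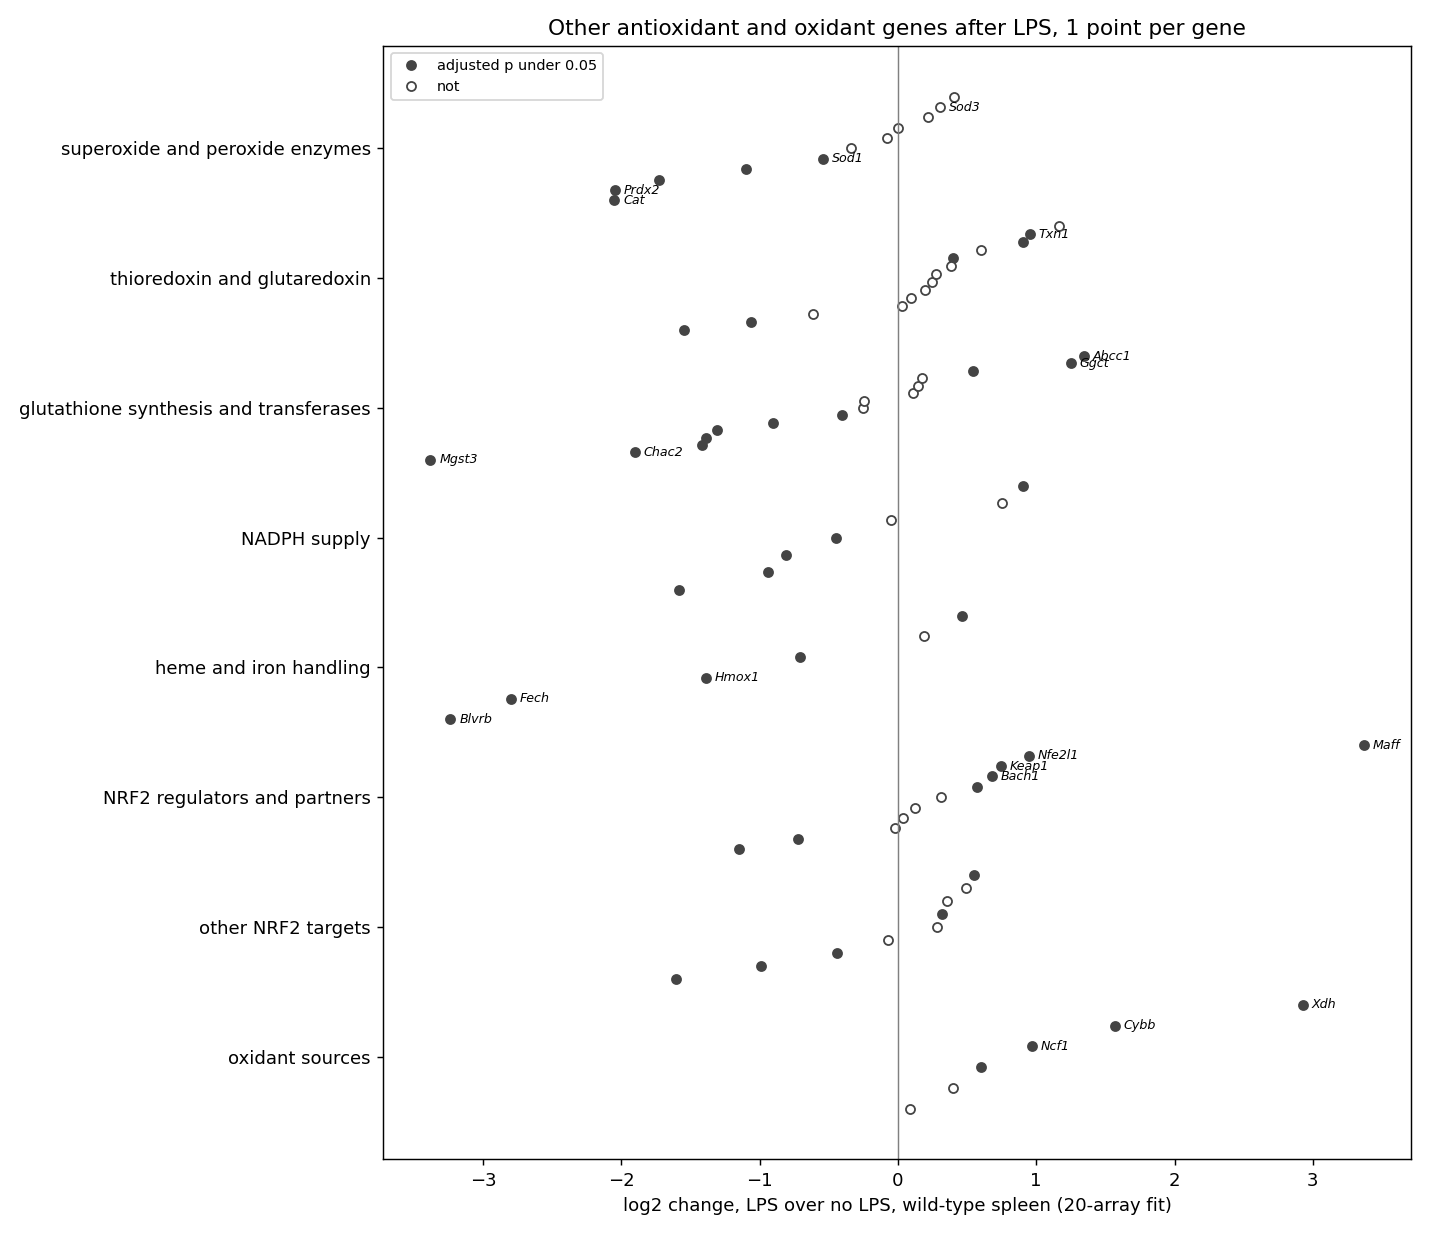
Log2 change with LPS in wild-type mice (20 arrays) of the other antioxidant and oxidant genes, by list; filled symbols have an adjusted p under 0.05. Superoxide and peroxide enzymes and heme genes lie mostly below 0, and oxidant sources lie above 0.

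The genes whose pattern over the 28 arrays was most like that of Sod2, with values centred within each experiment, were Acod1 at r = 0.987, Gzmb at 0.984, Gbp7 at 0.982, Rnf213 at 0.981 and Il1rn at 0.980, out of 12780 genes. Acod1 encodes the enzyme that makes itaconate in macrophages, and Gbp7 and Rnf213 are interferon-induced. For Slc7a11 the nearest were Snx10 at 0.846, Bcl2l11 at 0.845, Ddx60 at 0.843, AW112010 at 0.839 and Ms4a6d at 0.838. Among the members, Slc7a11 and Txnrd1 were nearest to Sod2, at 0.78 and 0.74, and within groups these values were -0.30 and 0.12. The points share the LPS contrast and the arrays, and no p-value is given. Gclm and Nqo1 correlated with each other at 0.81, and at 0.74 within groups, and Gclm with Gclc at 0.63 and 0.73.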

How the data were processed

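Array values were used as the authors deposited them: log2 values per probe set, made with GCRMA per the submitters' processing notes, which also name limma without its role. The log2 scale and the separate normalisation of the experiments were read from the values. Nothing was renormalised; scanner files were not used here. Groups follow the labels for diet, genotype and LPS, and the experiment follows the titles. Probe sets were named through the platform annotation: 34945 name 1 gene, 932 several and 9224 none, the last 2 kinds left out; each gene took its probe set with the highest mean. Among 45101 probe sets, 34741 of the single-gene ones matched a RefSeq gene. To be tested, a gene had to lie above the 40th percentile of the array on at least as many arrays as the smallest condition has.

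Linear models were run in limma (version 3.58.1, R 4.3.3) with moderated variances, and p-values were adjusted by Benjamini and Hochberg over all tested genes at 0.05. The wild-type model held 20 arrays and a term for the experiment (13458 genes; 15 degrees of freedom left). The null model held 16 arrays (13377 genes; 8 left), and the test between experiments 20 (13873 genes; 12 left). The fit was tested on simulated data. The number of arrays limits the precision. Near the lowest value means within 0.5 log2 of it. Correlations are Pearson's.

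The members and lists were chosen with earlier results of these data known. Named from the list of other genes were Sod1, Sod3, Cat, Hmox1, Keap1, Bach1 and Cybb, and the 8 rising and 6 falling called genes with the largest LPS change in wild-type mice; 5 genes were named for likeness to Sod2 and 5 to Slc7a11. Alternatives were quantile normalisation, centring on the array median, a filter at the 60th percentile, no filter, averaging all probe sets of a gene, array weights, a replicate block, a term for high Xist (above 6), fits without arrays high in Cpa1 (2 log2 above the lowest value), single experiments and leaving out each array.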

Additional observations from a re-analysis of the deposited data

Results flagged for a closer look

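Single arrays stood apart in 2 of 18 member groups of 4 examined, both in the first experiment and both near the lowest value; chance alone gives about 1 in 20. Nqo1 in LPS control-diet mice was 2.2929 on replicate 4, against 2.3495 to 2.3522 on the others. Gclm in LPS ABA-diet mice was 2.4124 on replicate 2, against 2.8477 to 2.8860 on the others. Both gaps are below 0.5 log2.

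In 2 of 18 comparisons between the experiments (9 members, with and without LPS), the arrays of the 2 diets did not overlap in either experiment and the order of the diets was opposite. Differences with overlapping arrays also changed sign in other members. For Txnrd1 with LPS, ABA minus control diet was -0.8463 log2 in the first experiment and 0.4229 in the wild-type mice of the second. For Nfe2l2 without LPS it was -0.6797 and 0.2727. All arrays of 1 diet lay on the same side of the other diet's arrays in each case, with groups of 2 to 4. The difference between experiments was not tested for these diet contrasts.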

How the results depend on the processing

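Counts of members called for LPS in wild-type mice (6 of 9) were 1 within the second experiment and 4 within the first experiment, and 4 to 7 under the other settings. In null mice the count of 3 fell to 1 with the mean of all probe sets and to 1 with array weights. The test between experiments called 1 member, against 0, with the mean of all probe sets and with a term for high Xist. Of the other listed genes, 15 were called within the second experiment against 46, and 16 in null mice with quantile normalisation against 10. Leaving out 1 array gave 4 to 6 members for LPS in wild-type mice, 1 to 3 in null mice, 2 in wild-type mice of that experiment, 0 to 1 between experiments and 0 in the other 7 comparisons, and 42 to 46 and 6 to 13 of the other listed genes in wild-type and null mice.

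Some signs turned. Within the first experiment Gclc was 0.25. Without arrays high in Cpa1 the null values were 0.0475 for Chac2 (-0.99 with all arrays), 0.49 for Fech (-0.58), 0.16 for Gclm (-1.003), -0.21 for Nfe2l2 (0.05) and 0.0511 for Nqo1 (-0.85). Quantile normalisation gave -0.0657 for Nfe2l2 in wild-type mice of the second experiment. Leaving out 1 array gave ranges of -1.5487 to 0.39 for Fech, -0.13 to 0.234 for Nfe2l2 and -0.0232 to 0.369 for Srxn1 in null mice, and of -0.082 to 0.2398 for Nfe2l2 in wild-type mice. The cause was not tested.

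Same-numbered arrays did not deviate together (correlations -0.72 to 0.49), so the numbers are not taken as pairs. With the replicate block the count was 4 members for LPS in wild-type mice (3 higher, 1 lower), 2 in null mice, 2 in wild-type mice of that experiment, and 42 and 9 of the other listed genes in wild-type and null mice.

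Limits: 2 arrays a group in the second experiment give wide intervals; values near the lowest one have little precision; and the prior degrees of freedom, 0.772 and 0.981, shrink the spread of single genes little.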
